A study of Mus musculus with 10 samples.

Results

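Glypicans and syndecans are the heparan sulfate proteoglycans of the cell membrane: core proteins at the cell surface that carry long sulfated sugar chains. The 10 genes described here are the 6 glypican genes, Gpc1 to Gpc6, and the 4 syndecan genes, Sdc1 to Sdc4. They were chosen by name, with the highest-mean probe set of each, and make up 10 of the 19938 genes analysed; each had 1 probe set. Affymetrix arrays measured RNA from 5 mouse cultures with 2 biological replicates each, 10 arrays in all. The mESC group was the R1 embryonic stem cell line, which comes from 129/Sv mice, on inactivated fibroblast feeders in 15% serum with 1000 U/ml Lif, a cytokine that keeps mouse embryonic stem cells undifferentiated. The p-NSC_L group was primitive neural stem cell spheres that formed from R1 cells within 5 to 7 days, without serum, in N2 medium with Lif at the same dose. For the p-NSC_LF group, such spheres were taken apart and replated with 1000 U/ml Lif, 10 ng/ml FGF and 2 μg/ml heparin. The d-NSC group was definitive neural stem cells, obtained by moving primitive ones into N2 and B27 with 20 ng/ml each of EGF and FGF and 2 μg/ml heparin, with no Lif named. The CNS-NSC group was neural stem cells from the frontal brain of wild-type ICR embryos at E11.5, grown with N2 and the same doses of EGF, FGF and heparin. By the labels, the 4 groups other than CNS-NSC come from 1 cell line, so strain and source differ together between CNS-NSC and the rest. Heparin was present in 3 of the 5 groups, always together with FGF, so that heparin and FGF cannot be told apart.

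Glypicans hang on the outer face of the membrane by a lipid anchor, whereas syndecans cross the membrane and have a short tail inside the cell. Their chains bind FGF, Wnt, hedgehog and BMP ligands, and FGF needs heparan sulfate to hold its receptor in an active complex. Heparin is a soluble, heavily sulfated relative of heparan sulfate. By sequence, the glypicans fall into a Gpc3 and Gpc5 branch and a branch of Gpc1, Gpc2, Gpc4 and Gpc6, and the syndecans into the pairs Sdc1 with Sdc3 and Sdc2 with Sdc4.

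In the RefSeq mouse annotation (GRCm38.p6) Gpc3 and Gpc4 lie next to each other on chromosome X, with 0 annotated genes between them, and Gpc5 and Gpc6 lie on chromosome 14 with 3 genes between them, 0 of these protein-coding. RefSeq promoter sequences were matched for 7 of the 10 genes. The 250 bases before the annotated start are shown for 5 of them: the adjacent Gpc3 and Gpc4, whose levels took different courses; Sdc3 and Sdc4, which changed in opposite directions in the step to d-NSC; and Gpc5, for which no difference passed the test. Capitals mark the GC box letters GGGCGG and the TATA box letters TATAAA, each searched on both strands and at any position.
Gpc3 (GRCm38.p6, chrX:52613975-52614224, - strand): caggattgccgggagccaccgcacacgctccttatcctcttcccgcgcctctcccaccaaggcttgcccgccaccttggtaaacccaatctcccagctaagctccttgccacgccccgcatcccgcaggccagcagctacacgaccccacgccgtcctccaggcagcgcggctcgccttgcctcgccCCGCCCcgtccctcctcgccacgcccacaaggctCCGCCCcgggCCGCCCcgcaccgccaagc
Gpc4 (GRCm38.p6, chrX:52164924-52165173, - strand): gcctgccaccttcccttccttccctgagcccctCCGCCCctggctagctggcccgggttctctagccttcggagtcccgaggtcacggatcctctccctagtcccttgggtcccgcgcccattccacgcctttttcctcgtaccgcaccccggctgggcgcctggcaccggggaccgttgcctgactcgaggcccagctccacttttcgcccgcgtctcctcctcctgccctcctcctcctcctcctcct
Sdc3 (GRCm38.p6, chr4:130792287-130792536, + strand): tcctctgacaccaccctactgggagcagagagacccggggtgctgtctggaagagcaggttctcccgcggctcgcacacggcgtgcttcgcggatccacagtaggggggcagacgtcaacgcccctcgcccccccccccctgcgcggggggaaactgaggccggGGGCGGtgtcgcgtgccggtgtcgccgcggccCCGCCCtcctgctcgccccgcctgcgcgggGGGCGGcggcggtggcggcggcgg
Sdc4 (GRCm38.p6, chr2:164443189-164443438, - strand): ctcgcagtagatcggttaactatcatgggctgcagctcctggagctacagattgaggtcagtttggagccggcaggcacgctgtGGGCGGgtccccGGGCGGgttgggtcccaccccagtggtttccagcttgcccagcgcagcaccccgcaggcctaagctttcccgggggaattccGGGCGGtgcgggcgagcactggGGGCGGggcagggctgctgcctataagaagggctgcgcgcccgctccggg
Gpc5 (GRCm38.p6, chr14:115091965-115092214, + strand): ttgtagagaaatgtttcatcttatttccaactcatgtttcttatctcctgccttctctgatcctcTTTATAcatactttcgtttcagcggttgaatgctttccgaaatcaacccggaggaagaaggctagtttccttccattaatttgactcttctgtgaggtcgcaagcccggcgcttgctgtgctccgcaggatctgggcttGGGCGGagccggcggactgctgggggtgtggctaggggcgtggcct
The GC box letters were found in all 7 windows matched and in 32.7% of 32851 promoter windows of the same length. There were 3 matches for Gpc3, 1 for Gpc4, 3 for Sdc3, 4 for Sdc4 and 1 for Gpc5. The TATAAA letters were found in 1 of the 7 windows, that of Gpc5, as the reverse complement TTTATA, and in 12.4% of all windows. The Gpc5 window held 12 CG dinucleotides at 51.2% GC. The 7 matched windows held from 10 (Sdc1) to 32 (Sdc3), at 51.2% to 76.4% GC, and the median of all windows was 6. These matches describe the sequences only, and no binding was measured.

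Several facts about the arrays bear on the values. Replicates correlated across genes, which are not independent replicates, at r = 0.997 in d-NSC and r = 0.989 in CNS-NSC, the highest and the lowest of the 5 groups. The replicates differed by at least 2-fold at 167 genes in p-NSC_L and at 277 in CNS-NSC, and at 1 to 30 in the other groups. Hprt, a purine salvage gene picked after its values were seen, read 6.99 and 6.76 on the log2 scale in mESC and at least 10.45 on the other 8 arrays, so that in comparisons with mESC a difference of the cell stock cannot be told apart from that of culture. Xist, the RNA of the inactive X chromosome and likewise picked afterwards, read 12.75 and 12.03 in CNS-NSC. It read at most 6.97 on the 8 arrays labelled as of R1 origin. Gpc3 and Gpc4 are X-linked.

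Marker genes were read as summed linear intensity per array. The 8 embryonic stem cell markers summed to 46512 to 49687 in mESC, 52607 to 54036 in p-NSC_L, 52970 to 54424 in p-NSC_LF, 11603 to 12337 in d-NSC and 1279 to 1287 in CNS-NSC. The 9 neural stem and radial glia markers summed to 14824 to 16080 in mESC, 19116 to 19954 in p-NSC_L, 16072 to 17007 in p-NSC_LF, 49291 to 49838 in d-NSC and 66187 to 66513 in CNS-NSC. By these lists the groups labelled primitive neural stem cells lay near mESC, and d-NSC lay between mESC and CNS-NSC. The 10 endoderm markers summed to 4619 to 4670 in d-NSC, 1760 to 2682 in the 3 Lif cultures and 2224 to 3721 in CNS-NSC. The 9 feeder fibroblast markers summed to 3419 to 3570 in d-NSC, 1980 to 3261 in the Lif cultures and 1697 to 1829 in CNS-NSC, and the 7 oligodendrocyte lineage markers to 23455 to 27184 in CNS-NSC and 1431 to 1702 elsewhere. The 8 endothelial markers summed to 2944 to 3052 in d-NSC, 2475 to 3317 in the Lif cultures and 1105 to 1157 in CNS-NSC. The 10 neuron markers summed to 8928 to 9065 in d-NSC, 7560 to 9471 in the Lif cultures and 8870 to 9685 in CNS-NSC. A sum follows its brightest genes, so similar sums can hide opposite courses. Pecam1 read 10.3 to 11.1 in the Lif cultures and 7.97 and 8.02 in d-NSC. Stmn2 read 12.34 to 12.81 in the Lif cultures, and Map2 read 12.68 and 12.76 in CNS-NSC. From p-NSC_LF to d-NSC, 5 of 8 endothelial markers were called higher and 2 lower, and 9 of 10 neuron markers higher and 1 lower. Pdgfra, a gene on the endoderm list, read 10.89 and 8.52 in CNS-NSC, and no cell type is called from it there. Array intensities have no true zero, so absence of a marker cannot be read from them. In bulk RNA, fewer cells of a type and less RNA per cell cannot be told apart.

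**Figure D1:**
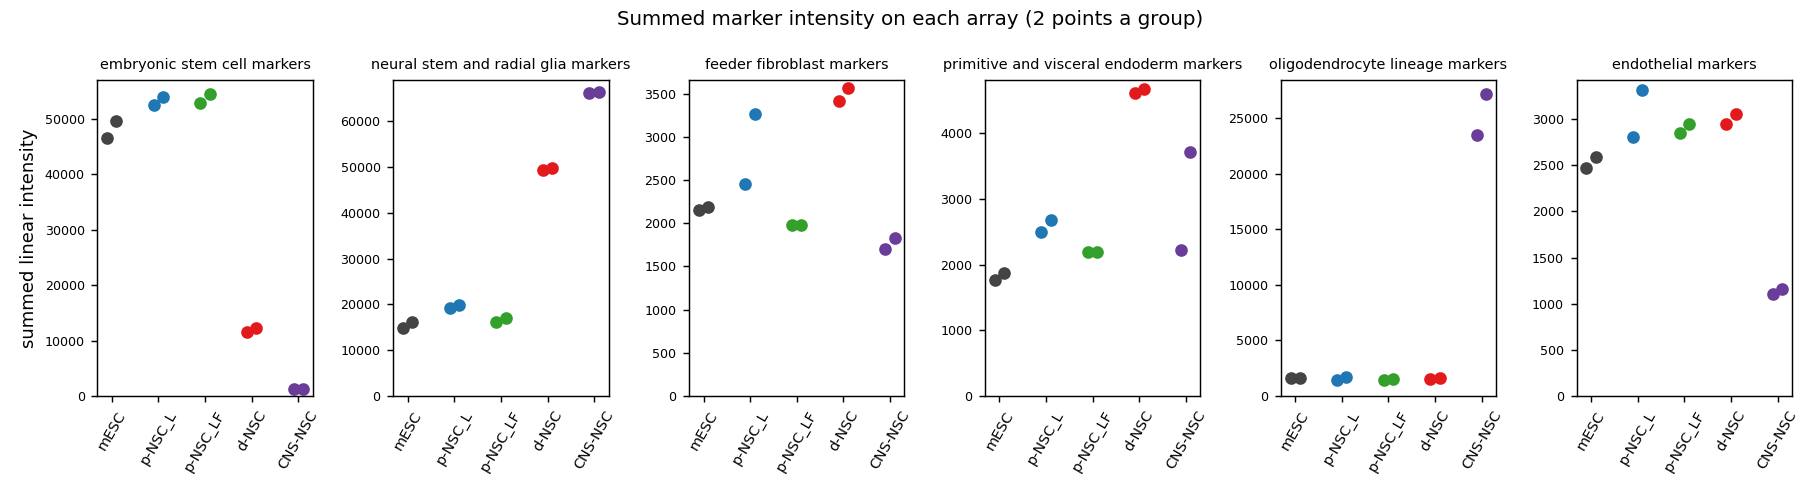
Summed linear intensity (vertical axes, each from 0) of 6 lists of cell type markers in the 5 cultures, with 1 point for each of the 2 arrays of a group. Stem cell markers are lowest in CNS-NSC and intermediate in d-NSC, neural stem cell markers are higher in d-NSC and CNS-NSC than in the Lif cultures, and endoderm and fibroblast markers reach their highest sums in d-NSC.

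Levels below are log2 intensities, on which 1 unit is a 2-fold difference, in the order of culture from mESC to d-NSC and then CNS-NSC. A level belongs to its own probe set and cannot be set against that of another gene. A difference was called where its adjusted p from limma, over all genes of a comparison, was below 0.05.

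Gpc3 binds hedgehog and Wnt ligands, and its loss causes overgrowth in mice and humans. It read 11.34 and 11.35 in mESC, 11.56 and 11.45 in p-NSC_L, 10.52 and 10.56 in p-NSC_LF, 12.50 and 12.55 in d-NSC, and 8.02 and 7.46 in CNS-NSC. It was highest in d-NSC and lowest in CNS-NSC, with no overlap between either group and any other. Its group means spanned 4.78 log2 units, a wider span than that of 99.4% of all genes. In the order d-NSC, p-NSC_L, mESC, p-NSC_LF, CNS-NSC, the neighbours p-NSC_L and mESC did not differ past the threshold (0.16 ± 0.16 SE, adjusted p = 0.61) and all other neighbours did. Gpc5, the other gene of its branch, read between 6.46 and 6.77 on the 10 arrays. No neighbours in its order of means differed past the threshold, and all its values lay below 6.80, the lower quartile of gene means.

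Gpc4 and Gpc6 are close relatives that mouse astrocytes release as signals for synapse formation. Gpc4 read 9.27 and 9.16 in mESC, 10.68 and 10.67 in p-NSC_L, 11.24 and 11.14 in p-NSC_LF, 10.64 and 10.59 in d-NSC, and 9.57 and 9.48 in CNS-NSC. Both mESC arrays were lower than all 8 others, and both p-NSC_LF arrays were the highest. Among neighbours in its order, p-NSC_L and d-NSC did not differ past the threshold (0.06 ± 0.10 SE, adjusted p = 0.69). Gpc6 read 7.82 and 8.0 in mESC, 8.45 and 8.63 in p-NSC_L, 8.30 and 8.41 in p-NSC_LF, 11.65 and 11.497 in d-NSC, and 10.34 and 10.33 in CNS-NSC. It was high in both EGF cultures, with d-NSC above CNS-NSC, and low in the 3 Lif cultures. Among the Lif cultures, p-NSC_L and p-NSC_LF did not differ past the threshold (0.18 ± 0.11 SE, adjusted p = 0.56).

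Gpc1, a glypican that supports FGF signalling and brain growth in mice, read 8.87 and 8.89 in mESC, 8.80 and 8.82 in p-NSC_L, 8.71 and 8.82 in p-NSC_LF, 9.48 and 9.44 in d-NSC, and 10.25 and 10.19 in CNS-NSC. The Lif cultures lay together below d-NSC, and d-NSC lay below CNS-NSC. Gpc2, also called cerebroglycan and known from developing neurons, read 7.97 and 7.94 in mESC, 7.85 and 8.03 in p-NSC_L, 7.87 and 8.02 in p-NSC_LF, 9.0 and 9.09 in d-NSC, and 8.68 and 8.39 in CNS-NSC. Its Lif cultures again lay together at the low end, and d-NSC was the highest group.

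Sdc3, the syndecan of the nervous system and a receptor for the growth factor pleiotrophin, read 7.63 and 7.37 in mESC, 7.91 and 8.20 in p-NSC_L, 8.08 and 8.03 in p-NSC_LF, 9.46 and 9.48 in d-NSC, and 11.74 and 11.59 in CNS-NSC. It was highest in CNS-NSC, and d-NSC stood between CNS-NSC and the Lif cultures. Its group means spanned 4.16 log2 units, a wider span than that of 98.9% of all genes. The neighbours p-NSC_LF and p-NSC_L did not differ past the threshold (0.00 ± 0.13 SE, adjusted p = 1.0). Sdc1, the syndecan of epithelia, varied least of the 4, with means of 9.21 ± 0.04 in mESC, 9.02 ± 0.15 in p-NSC_L, 9.05 ± 0.03 in p-NSC_LF, 9.62 ± 0.07 in d-NSC and 9.45 ± 0.16 in CNS-NSC (SD, n = 2 each). No neighbours in its order of means differed past the threshold.

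Sdc4, a syndecan of focal adhesions that binds protein kinase C alpha, read 10.18 and 10.01 in mESC, 11.62 and 11.05 in p-NSC_L, 12.20 and 11.93 in p-NSC_LF, 9.49 and 9.44 in d-NSC, and 9.34 and 9.68 in CNS-NSC. It was highest in both primitive groups and lowest in the EGF cultures, which overlapped. Sdc2, a syndecan of mesenchymal cells and of neuronal spines, read 7.53 and 7.50 in mESC, 7.30 and 7.85 in p-NSC_L, 7.89 and 7.91 in p-NSC_LF, 8.99 and 9.27 in d-NSC, and 9.16 and 10.25 in CNS-NSC. All 4 arrays of the EGF cultures were above the 6 arrays of the Lif cultures. The CNS-NSC arrays lay 1.10 log2 units apart for Sdc2, the widest gap between replicates for any of the 10 genes.

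**Figure D2:**
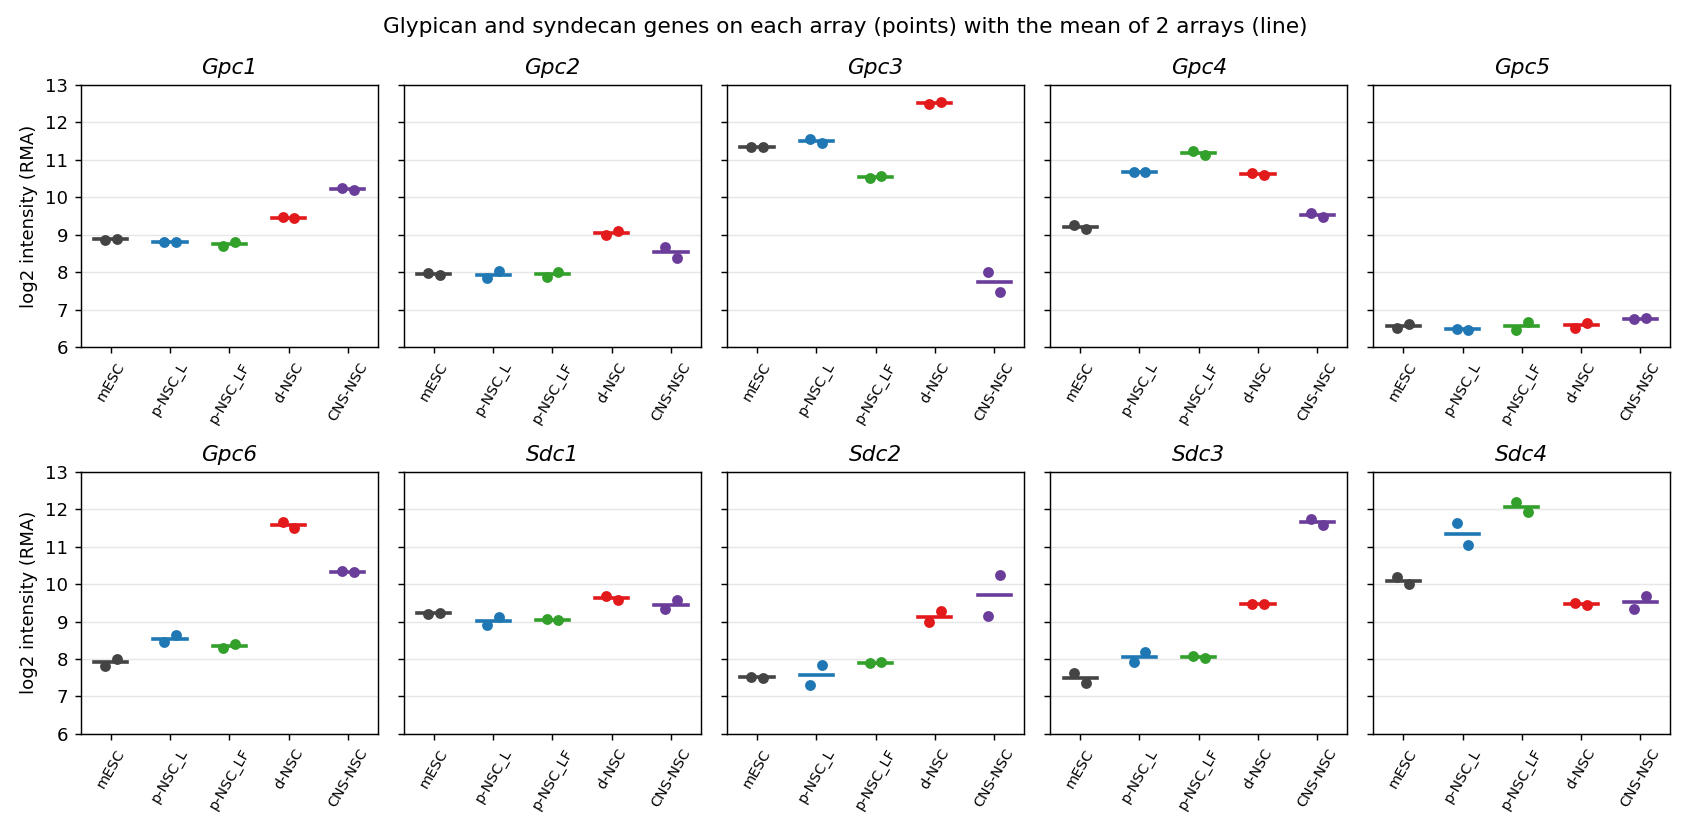
Log2 intensity (vertical axis) of each of the 10 genes in the 5 cultures, with points for single arrays and lines for the means of 2 arrays. Gpc6, Sdc2 and Sdc3 are high in d-NSC and CNS-NSC, Gpc4 and Sdc4 are highest in p-NSC_LF, and Gpc3 is highest in d-NSC and lowest in CNS-NSC.

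Set against mESC, the first spheres in p-NSC_L had more RNA of both Gpc4 and Sdc4. Gpc4 rose 2.76-fold (1.46 ± 0.10 on the log2 scale, SE; adjusted p = 4.1e-05) and Sdc4 rose 2.37-fold (1.25 ± 0.19, adjusted p = 0.0022). Gpc6 rose by 0.63 ± 0.11 (adjusted p = 0.0058) and Sdc3 by 0.56 ± 0.13 (adjusted p = 0.019). Of the 10 genes, 4 were called higher, 0 lower and 6 were not called. Over all genes, 13.4% were called, 6.56% higher and 6.79% lower, and the median difference of the 10 was 0.11, against 0.02 over all genes. Feeder fibroblast markers (3 of 9 higher and 1 lower) and endoderm markers (4 of 10 higher and 0 lower) moved in the same comparison. So did neural stem cell markers (3 of 9 higher and 1 lower) and neuron markers (1 of 10 higher and 4 lower). Of the neuron list, Neurod1 differed by -2.43 ± 0.20 and Snap25 by 0.58 ± 0.15. Of the fibroblast list, the proteoglycan gene Dcn, decorin, differed by 3.33 ± 0.40 and Thy1 by -0.76 ± 0.17, and 5 of 9 were not called. Dcn read 6.06 and 6.48 in mESC, the group grown on feeders, and 8.79 and 10.41 in p-NSC_L. The part of any such cells in the result was not tested. The Sdc3 call was lost without mESC replicate 2 (0.43, adjusted p = 0.15), without p-NSC_L replicate 2 (adjusted p = 0.067), without moderation (adjusted p = 0.073) and in a fit of these 2 groups alone (adjusted p = 0.080). The Gpc6 call was lost without mESC replicate 1 (0.54, adjusted p = 0.064).

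With FGF, heparin and a passage added, in p-NSC_LF against p-NSC_L, the adjacent X-linked genes moved apart. Gpc3 fell by 0.96 ± 0.16 (1.95-fold, adjusted p = 0.017) and Gpc4 rose by 0.51 ± 0.10 (1.42-fold, adjusted p = 0.032). Of the 10 genes 1 was thus called higher, 1 lower and 8 were not called. Over all genes, 1.78% were called, 1.1% higher and 0.677% lower. Sdc4 differed by 0.73 ± 0.19, adjusted p = 0.096, and was called without p-NSC_L replicate 1 (1.01, adjusted p = 0.027). The difference of Sdc3 was 0.00 (95% interval -0.29 to 0.29) and that of Gpc1 was -0.05 (95% interval -0.26 to 0.16). Of the feeder fibroblast markers 0 of 9 were called higher and 1 lower, decorin (7.28 and 7.24 in p-NSC_LF, against 8.79 and 10.41 in p-NSC_L), and the list had a median difference of -0.17; its part was not tested. The Gpc3 call was lost without moderation (adjusted p = 0.13), without p-NSC_LF replicate 1 (0.16) or 2 (0.12) and without p-NSC_L replicate 1 (0.058). The Gpc4 call was lost under 10 of 20 alternatives, with adjusted p up to 0.31.

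With EGF and B27 added, more FGF and no Lif named, in d-NSC against p-NSC_LF, most of the 10 genes changed. Gpc6 rose 9.29-fold (3.22 ± 0.11, adjusted p = 3.8e-08), Gpc3 3.96-fold (1.98 ± 0.16, adjusted p = 5.2e-06) and Sdc3 2.66-fold (1.41 ± 0.13, adjusted p = 1.4e-05). Sdc2 rose by 1.23 ± 0.30 (adjusted p = 0.0078), Gpc2 by 1.10 ± 0.13 (adjusted p = 6.3e-05), Gpc1 by 0.70 ± 0.09 (adjusted p = 2.1e-04) and Sdc1 by 0.57 ± 0.12 (adjusted p = 0.0031). Sdc4 fell 6.06-fold (-2.60 ± 0.19, adjusted p = 2.9e-06) and Gpc4 fell by 0.57 ± 0.10 (adjusted p = 0.0010). In this step 7 genes were called higher, 2 lower and 1 was not called, Gpc5, whose difference was 0.01 (95% interval -0.24 to 0.26). Over all genes, 38.6% were called, 19.3% higher and 19.3% lower, and the median of the 10 genes was 0.90, against -0.01 over all genes. Markers of embryonic stem cells (0 of 8 higher and 8 lower, median difference -2.69), neural stem cells (7 of 9 higher and 1 lower), neurons (9 of 10 higher and 1 lower), feeder fibroblasts (7 of 9 higher and 1 lower), endoderm (6 of 10 higher and 0 lower) and endothelium (5 of 8 higher and 2 lower) moved in the same step, and the part of each was not tested. The Sdc2 call was lost without d-NSC replicate 2 (1.08, adjusted p = 0.063) and without moderation (adjusted p = 0.074).

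Over the whole course, d-NSC against mESC, 8 genes were called higher, 1 lower and 1 was not called. Over all genes, 40.5% were called, 20.7% higher and 19.9% lower. Gpc6 rose 12.7-fold (3.66 ± 0.11, adjusted p = 2.9e-08), Sdc3 3.91-fold (1.97 ± 0.13, adjusted p = 1.6e-06) and Sdc2 3.05-fold (1.61 ± 0.30, adjusted p = 0.0015). Gpc4 rose 2.65-fold (1.40 ± 0.10, adjusted p = 2.4e-06) and Gpc3 2.27-fold (1.18 ± 0.16, adjusted p = 1.8e-04). Sdc4 was lower by 0.63 ± 0.19 (adjusted p = 0.023), although both primitive groups read above mESC. Markers of embryonic stem cells (0 of 8 higher and 8 lower), neural stem cells (7 of 9 higher and 0 lower), neurons (6 of 10 higher and 2 lower), feeder fibroblasts (7 of 9 higher and 1 lower), endoderm (8 of 10 higher and 0 lower) and endothelium (5 of 8 higher and 2 lower) moved over the same course, and the part of each was not tested. The Sdc4 call was lost under 6 of 20 alternatives, among them leaving out any 1 array of mESC or d-NSC, and the Sdc1 call (0.40 ± 0.12, adjusted p = 0.019) was lost under the same 4 omissions.

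Between d-NSC and CNS-NSC, the neural stem cells from culture and from the embryo, Gpc3 and Sdc3 differed most, in opposite directions. B27 was added to d-NSC alone. Gpc3 was 27.6-fold higher in d-NSC (4.78 ± 0.16, adjusted p = 1.8e-08), Gpc6 2.36-fold (1.24 ± 0.11, adjusted p = 1.7e-05) and Gpc4 2.13-fold (1.09 ± 0.10, adjusted p = 1.5e-05). Gpc2 was higher by 0.51 ± 0.13 (adjusted p = 0.0093). Sdc3 was 4.57-fold lower in d-NSC (-2.19 ± 0.13, adjusted p = 7.1e-07) and Gpc1 was lower by 0.76 ± 0.09 (adjusted p = 1.4e-04). Of the 10 genes 4 were higher, all glypicans, 2 lower and 4 not called. Over all genes, 34% were called, 17.6% higher and 16.5% lower, and the median of the 10 was 0.06, against -0.01 over all genes. Sdc4 differed by -0.05 (95% interval -0.47 to 0.37) and Sdc1 by 0.16 (95% interval -0.10 to 0.43). Sdc2 differed by -0.58 (95% interval -1.24 to 0.09) and was called lower in d-NSC without CNS-NSC replicate 1 (-1.13, adjusted p = 0.0031). The Gpc2 call was lost without d-NSC replicate 2 (0.47, adjusted p = 0.073) or CNS-NSC replicate 2 (0.36, adjusted p = 0.063). Markers of embryonic stem cells (7 of 8 higher and 0 lower, median difference 2.74), neural stem cells (1 of 9 higher and 4 lower), neurons (6 of 10 higher and 1 lower) and astrocytes (1 of 8 higher and 4 lower) differed too, and their part was not tested. Those of the oligodendrocyte lineage (0 of 7 higher and 5 lower), endoderm (7 of 10 higher and 0 lower), feeder fibroblasts (7 of 9 higher and 1 lower) and endothelium (8 of 8 higher and 0 lower) differed as well, as did strain and Xist, and the part of each was not tested.

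**Figure D3:**
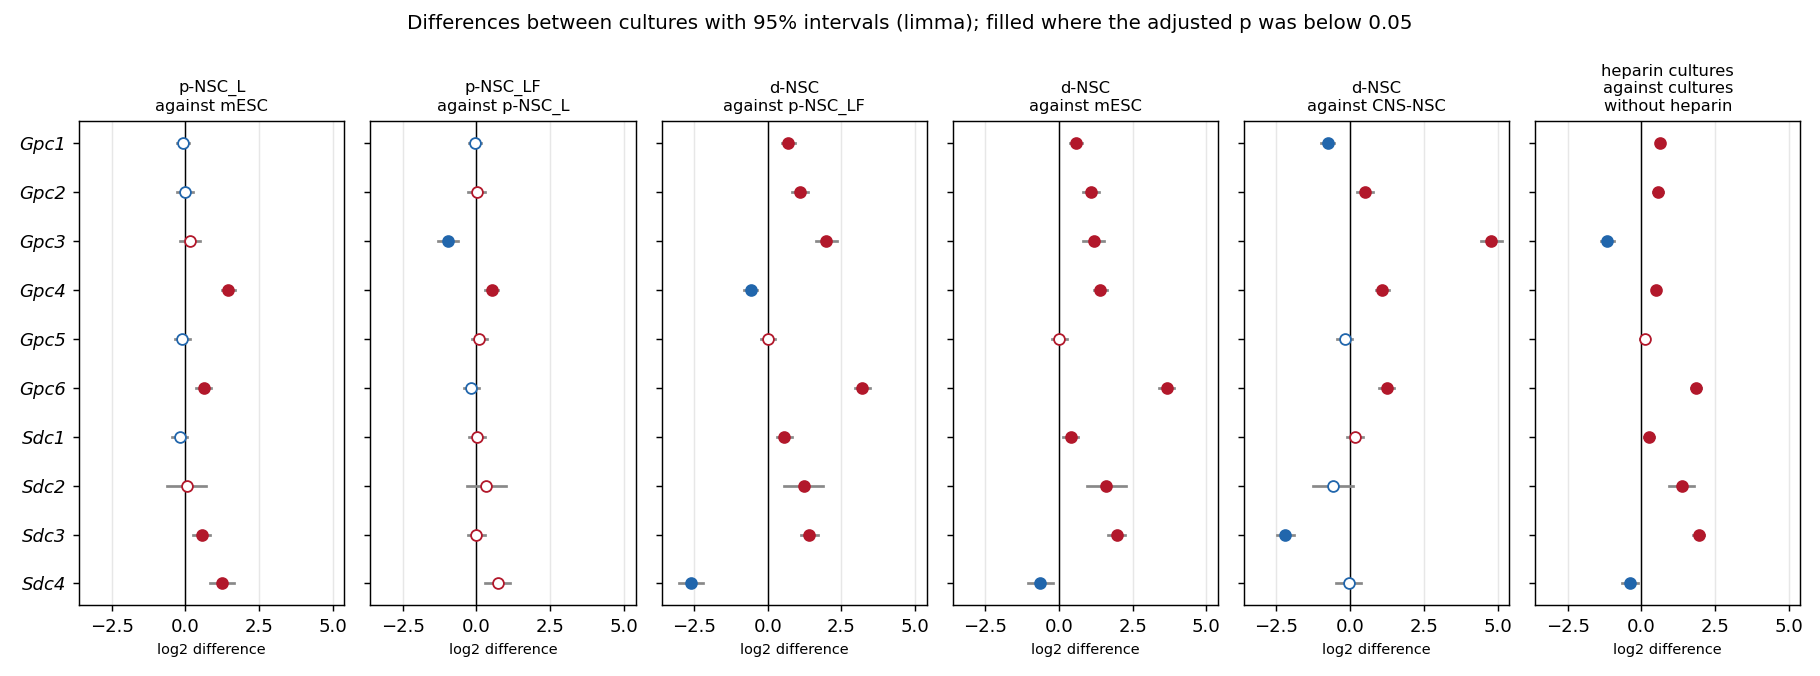
Log2 difference (horizontal axes) of each gene in the 6 comparisons, the culture named first minus the one named second, with 95% intervals from limma; filled points have an adjusted p below 0.05. In the step to p-NSC_LF the 2 filled points are Gpc3 and Gpc4, in the step to d-NSC 9 of 10 are filled, and the point farthest from 0 is Gpc3 in d-NSC against CNS-NSC, at 4.78.

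Last, the mean of the 3 heparin cultures (p-NSC_LF, d-NSC and CNS-NSC) was set against the mean of the 2 cultures without heparin (mESC and p-NSC_L), with 7 genes called higher, 2 lower and 1 not called. Over all genes, 42.8% were called, 22.3% higher and 20.5% lower. SEs and p-values here rest on the 2 arrays within each group and do not measure the spread between cultures. The Sdc3 means, for example, were 8.06 in p-NSC_LF, 9.47 in d-NSC and 11.66 in CNS-NSC. Sdc3 was 3.87-fold higher (1.95 ± 0.08, adjusted p = 7.5e-08), Gpc6 3.64-fold (1.86 ± 0.07, adjusted p = 4.5e-08) and Sdc2 2.58-fold (1.37 ± 0.19, adjusted p = 2.3e-04). Gpc3 was lower by 1.15 ± 0.10 (adjusted p = 8.8e-06), yet both its highest group, d-NSC at 12.53 ± 0.03, and its lowest, CNS-NSC at 7.74 ± 0.40 (SD, n = 2 each), were heparin cultures. Sdc4, lower by 0.37 ± 0.12 (adjusted p = 0.034), likewise had its highest group, p-NSC_LF at 12.06 ± 0.20, and its lowest, d-NSC at 9.46 ± 0.04, among them. At p-NSC_LF, where heparin and FGF first entered, Sdc3 read 8.08 and 8.03, against 7.91 and 8.20 in p-NSC_L, and the groups overlapped. Gpc6 read 8.30 and 8.41 in p-NSC_LF, against 8.45 and 8.63 in p-NSC_L, and Sdc2 read 7.89 and 7.91, against 7.30 and 7.85. The other heparin cultures, d-NSC and CNS-NSC, also had EGF and no Lif named, and the part of these was not tested. Stem cell markers (0 of 8 higher and 8 lower) and neural stem cell markers (8 of 9 higher and 0 lower) also separated these cultures, and their part was not tested. The Sdc4 call was lost under 9 of 19 alternatives and that of Sdc1 (0.25 ± 0.08, adjusted p = 0.020) under 4 of 19.

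The genes that build, edit and read the chains were followed through 7 lists of 89 genes, of which 87 were analysed. In p-NSC_LF against p-NSC_L, 3 rose and 0 fell, where 1.1% of all genes were called higher and 0.677% lower. The 3 were Sdcbp2, a relative of the syndecan adaptor syntenin, by 1.07 ± 0.11 (adjusted p = 0.0016), the syndecan-tail scaffold gene Cask by 0.78 ± 0.13 (adjusted p = 0.016), and Extl1, of the chain-forming exostosin family, by 0.61 ± 0.10 (adjusted p = 0.017). Whether calls of list genes held under the alternatives is not given here. Over all genes, the 355 calls of p-NSC_LF against p-NSC_L became 89 without moderation. In d-NSC against p-NSC_LF, 38 rose and 16 fell, with a median difference of 0.18, against -0.01 over all genes. Over all genes 19.3% were called higher in that step and 19.3% lower, and the counts of the single lists below stand beside these shares; on lists this short, some lie near them.

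Chain modification genes were 7 of 15 higher and 1 lower in d-NSC against p-NSC_LF. Of those higher, Ndst3, Ndst4 and Hs3st5 read below 6.80, the lower quartile of gene means, on all 10 arrays. Ndst1, also on this list, was not analysed. Hs6st2, a 6-O-sulfotransferase gene, read 8.63 and 8.35 in d-NSC, against 6.37 and 5.94 in p-NSC_LF (2.33 ± 0.16, adjusted p = 1.9e-06). Its relative Hs6st1 read 9.77 and 9.83 in d-NSC, against 10.73 and 10.65 in p-NSC_LF (-0.89 ± 0.11, adjusted p = 9.1e-05), so that the pair moved in opposite directions. Hs3st1, a 3-O-sulfotransferase gene needed for the anticoagulant motif of heparin, rose by 1.09 ± 0.15. Genes of chain start and polymerisation were 3 of 11 higher and 0 lower: Xylt1, which adds the first sugar, rose by 1.44 ± 0.14, the polymerase gene Ext1 by 1.02 ± 0.12 and Extl3 by 0.84 ± 0.15. Precursor genes were 1 of 6 higher and 3 lower, and Ugdh, which makes the glucuronic acid donor, fell by 1.07 ± 0.25.

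Sulf1, which removes 6-O-sulfates from chains outside the cell, read 11.23 and 11.21 in d-NSC, against 8.75 and 9.01 in p-NSC_LF (2.34 ± 0.14, adjusted p = 9.3e-07) and 6.59 and 7.0 in CNS-NSC (4.43 ± 0.14, adjusted p = 1.8e-08). Like Gpc3, it was highest in d-NSC and lowest in CNS-NSC. Its relative Sulf2 differed the other way between d-NSC and CNS-NSC (-0.74 ± 0.13, adjusted p = 0.0013). Xylt1 read 9.71 and 9.60 in d-NSC, against 12.55 and 12.16 in CNS-NSC (-2.70 ± 0.14, adjusted p = 3.1e-07), and Papss1, which makes the sulfate donor, was lower in d-NSC by 1.79 ± 0.13. In that comparison chain start genes were 1 of 11 higher and 6 lower, and precursor genes 0 of 6 higher and 3 lower, where 17.6% of all genes were higher and 16.5% lower.

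Of the other heparan sulfate proteoglycans, those of basement membranes rose in p-NSC_L against mESC: agrin, Agrn, by 1.01 ± 0.13 and perlecan, Hspg2, by 1.00 ± 0.13, with 4 of 7 higher and 0 lower in the list, where 6.56% of all genes were called higher. Hspg2 read 9.89 and 9.79 in d-NSC, against 11.60 and 11.60 in p-NSC_LF (-1.76 ± 0.13, adjusted p = 3.4e-06), while Tgfbr3, the co-receptor betaglycan, rose by 1.16 ± 0.10. The list was 4 of 7 higher and 2 lower in that step.

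**Figure D4:**
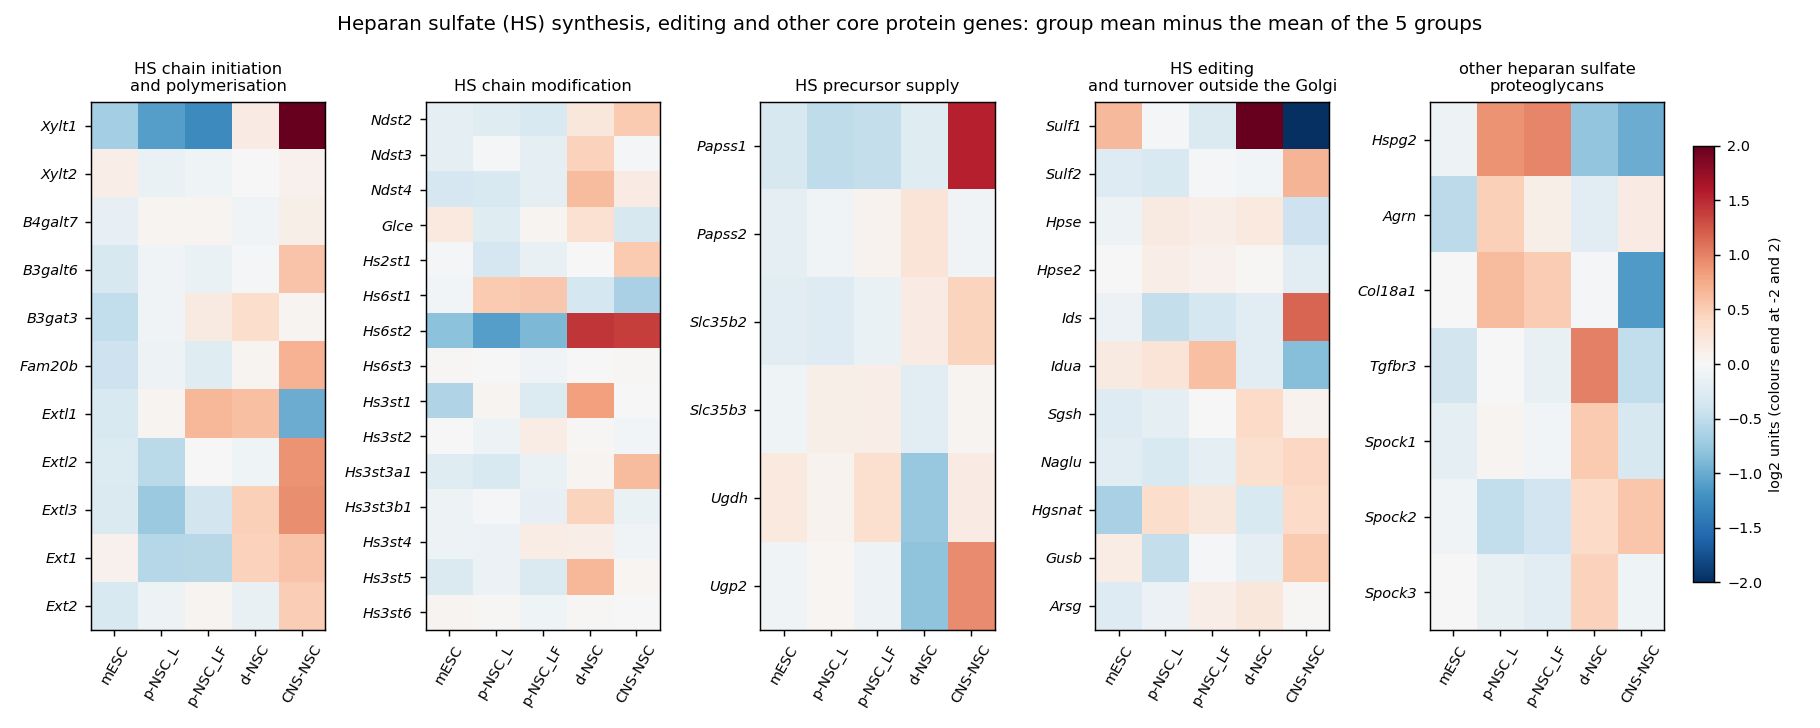
Group means of 50 heparan sulfate genes in 5 lists, each minus that gene's mean over the 5 cultures (colour, log2 units, ending at -2 and 2). Sulf1 is highest in d-NSC, Hs6st2 is high in d-NSC and CNS-NSC, Hspg2 is highest in the primitive groups, and Xylt1 and Papss1 are highest in CNS-NSC.

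Genes on a list of growth factors, other ligands and FGF receptors were 12 of 19 higher and 3 lower in d-NSC against p-NSC_LF. Binding of their products to heparin was not measured. Ptn, pleiotrophin, a ligand of Sdc3, read 10.48 and 10.65 in d-NSC, against 6.67 and 6.80 in p-NSC_LF (3.83 ± 0.15, adjusted p = 5.8e-08) and 12.76 and 12.78 in CNS-NSC (-2.20 ± 0.15, adjusted p = 1.8e-06). Both Ptn and Sdc3 were thus higher in d-NSC than in p-NSC_LF and lower than in CNS-NSC. Fgf15 rose by 4.16 ± 0.12 and Fgfr2 by 2.46 ± 0.24, while Fgf4, an FGF of the early embryo, fell by 3.02 ± 0.11. Mdk, midkine, the relative of pleiotrophin, was higher in d-NSC than in CNS-NSC by 4.73 ± 0.11. Processing and partner genes were 8 of 18 higher and 5 lower in d-NSC against p-NSC_LF. Cask rose by 1.71 ± 0.13, and Tiam1, a Rac activator, fell by 1.73 ± 0.11. Prkca, the protein kinase C alpha that Sdc4 binds, was lower in d-NSC than in CNS-NSC by 2.11 ± 0.12.

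In the heparin comparison 49 of the 87 genes were called higher and 13 lower, with a median difference of 0.31, against 0.03 over all genes, of which 22.3% were called higher and 20.5% lower. Cask (1.59 ± 0.08), the syntenin gene Sdcbp (0.91 ± 0.10), Extl2 (0.67 ± 0.08) and Sulf2 (0.48 ± 0.08) were among those called higher. In p-NSC_LF, Cask read 10.31 and 10.45, Sdcbp 10.75 and 10.80, Extl2 8.11 and 8.06, and Sulf2 11.56 and 11.68. The highest arrays without heparin read 10.24, 10.73, 7.89 and 11.48. The SEs again rest on arrays within groups. The part of EGF and Lif was not tested.

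For the 3 members with the widest span, the genes of most similar pattern were sought by Pearson's r over the 10 arrays, which fall into 5 groups, among 5138 genes with a span of at least 1 log2 unit and a highest group mean at or above the median gene. Closest to Gpc3 were Arid3b (r = 0.983), Arhgap28 (r = 0.983) and Ppip5k2 (r = 0.982). Closest to Sdc3 were Nell2 (r = 0.996), Pcdhb20 (r = 0.995) and Sox5 (r = 0.994). Closest to Gpc6 were Cped1 (r = 0.995), Kif21a (r = 0.994) and Cdh6 (r = 0.994).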

How the data were processed

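RNA was hybridised to Affymetrix whole-transcript arrays. The authors deposited log2 intensities, 1 per probe set and array, for which Partek and RMA are listed, with no version, per the submitters' processing notes. The RMA procedure compresses differences of dim probe sets. That the scale is log2 was judged from the range of values, 2.07 to 14.7. Array medians were 7.66 to 7.76. For the platform's probe annotation, the build was not given in the sources used here.

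Of 35556 probe sets, 21789 had 1 gene symbol here, 1621 several and 12146 none. The highest-mean probe set stood for each of 19938 genes. limma 3.58.1 (R 4.3.3) estimated a mean for every group from the 10 arrays together, with 5 residual degrees of freedom. P-values were adjusted by Benjamini-Hochberg over all genes in each comparison. The procedure was also run on simulated arrays, drawn from the fit's own variances with equal spread in every group. That run cannot judge the procedure where groups differ in spread, and no conclusion is drawn from it. The labels call the replicates biological without naming separate cultures or embryos, so p-values measure the spread between these samples within their groups. With 2 arrays a group, their number limits the precision.

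Members and gene lists were chosen with earlier results of these data known. Genes named from a pathway list with their difference were called, with replicates that did not overlap. They are among the up to 3 such genes with the greatest rise and the up to 3 with the greatest fall in a comparison. Ndst3 and Ndst4 were named for their low values and Ndst1 as not analysed. Marker genes were named after their values were seen. The closing section gives the alternatives.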

Additional observations from a re-analysis of the deposited data

How the results depend on the processing

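Of 60 differences of the 10 genes, 38 kept direction and side of the threshold under every alternative run: 2 other normalizations, 2 filters on dim genes, a trended prior, an unmoderated test, array weights, the compared groups alone (not for the heparin comparison), the replicate number as a block, all probe sets averaged, and the omission of each array. Gpc5 was removed by both filters on dim genes, so its differences were not run under these. Each of the 10 genes had 1 probe set, so averaging probe sets could not change its difference. A difference could change only under another normalization or without an array of the groups compared. The other alternatives could move the adjusted p alone, so a kept direction under them carries no weight. Calls of the 10 genes that were lost or gained are named with their results above. Where 1 array of a pair was left out, the other was assumed to vary like the remaining groups. In p-NSC_L against mESC, the 2662 calls over all genes became 1587 with an unmoderated test and 1480 with the compared groups alone. In p-NSC_LF against p-NSC_L, the 355 calls became 89 without moderation, 208 when arrays were weighted and 99 with the compared groups alone, and the 2 calls among the 10 genes became 0, 1 and 1; the causes were not tested. Without single arrays, calls among the 10 genes and over all genes numbered 3 to 4 and 1102 to 3290 in p-NSC_L against mESC, 0 to 2 and 48 to 826 in p-NSC_LF against p-NSC_L, 8 to 9 and 5706 to 8494 in d-NSC against p-NSC_LF, 7 to 9 and 5975 to 8922 in d-NSC against mESC, 5 to 7 and 4684 to 7662 in d-NSC against CNS-NSC and 7 to 9 and 7207 to 9088 in the heparin comparison. In p-NSC_L against mESC the lowest count over all genes, 1102, was without mESC replicate 1, and without mESC replicate 2 it was 1205. In p-NSC_LF against p-NSC_L it was 48 and 70 without p-NSC_LF replicate 1 and 2, 826 without p-NSC_L replicate 2, 220 without either mESC array, 174 without either d-NSC array and 577 without either CNS-NSC array; among the 10 genes it was 0 without either p-NSC_LF array. No called difference of the 10 genes turned its sign. Uncalled ones did so when single arrays were left out, with ranges, in p-NSC_L against mESC, -0.11 to 0.075 for Gpc2, -0.22 to 0.33 for Sdc2; in p-NSC_LF against p-NSC_L, -0.086 to 0.096 for Gpc2, -0.080 to 0.13 for Sdc1, -0.14 to 0.14 for Sdc3, -0.10 to 0.0073 for Gpc1, -0.011 to 0.21 for Gpc5; in d-NSC against p-NSC_LF, -0.10 to 0.12 for Gpc5; in d-NSC against mESC, -0.052 to 0.082 for Gpc5; in d-NSC against CNS-NSC, -0.22 to 0.12 for Sdc4. Gpc5 also turned with quantile and cyclic loess normalization, to -0.047 and -0.0083 in d-NSC against p-NSC_LF and to -0.037 and -0.019 in d-NSC against mESC. The labels give same-numbered replicates no shared batch or day. Deviations of same-numbered arrays correlated at -0.11 to 0.37 over 10 pairs of groups, above 0.1 in 6, all of them pairs without d-NSC, and whether they shared a batch was not tested. With the replicate block, 2958, 407, 7943, 8362, 7108 and 8795 genes were called in the 6 comparisons, and no call of the 10 genes changed.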
